A study of Homo sapiens with 60 samples.

Results

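The expression of 10 genes of the ATF4 stress response was followed in HT29, a line established from a human colorectal adenocarcinoma, after 24 h with extracts of tonifying herbs. The genes were taken by name, with earlier results of these data known, and found in the count table through their Ensembl identifiers. They are 10 of 60675 gene identifiers, and all 10 were among the 16445 genes with enough counts to be tested. Of 60 RNA-seq libraries, 57 formed 19 groups of 3. The ethanol extract of Glycyrrhizae Radix (licorice root, called Glycyrrhiza here) was given at 14, 70 and 350 µg/mL. The water extracts of the multi-herb formulas Palmul-tang and Sibjeondaebo-tang, and the ethanol extracts of Poria Cocos, Atractylodis Rhizoma and Panax Ginseng (Poria, Atractylodes and Ginseng here), were given at 20, 100 and 500 µg/mL. These steps are called the low, medium and high dose. An ethanol extract of Angelicae Gigantis Radix (Angelica) at 12.8, 64 and 320 µg/mL had 1 library a dose. The vehicle group received 0.1% DMSO by its sample labels, while the series text states 2%. By the series text, the high dose was the IC20, the concentration that inhibits by 20%, for any extract whose IC20 lay under 500 µg/mL, as it would for Glycyrrhiza and Angelica. All groups are the same cell line, sampled at 1 time only, and every sample title names batch C. Nothing in the labels states whether the 3 libraries of a group are separate cultures. The p-values therefore speak only to the spread between libraries, part of which may be technical.

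ATF4 is a bZIP transcription factor of the integrated stress response. Kinases that sense unfolded protein in the endoplasmic reticulum (ER), amino acid shortage, heme shortage or double-stranded RNA phosphorylate the initiation factor eIF2, which lowers protein synthesis in general and raises translation of the ATF4 message. ATF4 then activates genes of amino acid supply and redox balance, other stress transcription factors and feedback proteins, and under lasting stress this program can lead to cell death. Because much of this control acts on translation, a level of ATF4 RNA is not a level of ATF4 protein.

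Some members carry a motif of this response in their promoter. RefSeq promoter windows (GRCh38.p14, from 250 bases before to 50 bases after the start site) were available for 9 of the 10 genes, and NUPR1 was not searched. The core of the C/EBP-ATF response element, which ATF4 binds together with a C/EBP partner, was searched on both strands as TGATGNAA, and the cyclic AMP response element as TGACGTCA. The first was found in ATF3 and CHAC1, 2 of the 9 genes, against 4.46% of all 27305 genes with a window and 2.77% of the tested genes among them. The second was found in PPP1R15A alone, and in 2.25% of all genes with a window and 3.66% of the tested ones. None of the 9 genes held both motifs. A gene can have several windows and was counted if any of them matched. Of all 35116 windows 3.62% held the first motif. Of 31 other ATF4 targets with a window, from a list described below, 12 held the first and 0 the second. These letters describe the windows and do not show binding. The stretches are shown because they hold the matches, which are in capitals: relative to the start site the motif begins at position -191 in ATF3 (chr1:212565157-212565333, plus strand), at -209 in CHAC1, where it lies on the minus strand (chr15:40953251-40953280, printed as the plus strand; this stretch lies inside an exon of the GENCODE annotation, downstream of the gene start given below), and at -58 in PPP1R15A (chr19:48872171-48872391, plus strand).
ATF3: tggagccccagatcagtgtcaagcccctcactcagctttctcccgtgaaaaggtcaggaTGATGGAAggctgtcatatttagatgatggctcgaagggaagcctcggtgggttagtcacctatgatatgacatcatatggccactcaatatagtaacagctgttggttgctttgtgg
CHAC1: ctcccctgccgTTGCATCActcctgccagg
PPP1R15A: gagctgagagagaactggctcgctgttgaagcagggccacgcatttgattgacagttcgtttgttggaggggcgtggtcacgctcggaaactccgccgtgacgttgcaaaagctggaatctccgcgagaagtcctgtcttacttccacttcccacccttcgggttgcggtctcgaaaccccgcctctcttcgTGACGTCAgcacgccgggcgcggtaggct

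Libraries held 19.31 M to 29.62 M counts (median 25.06 M), and those of vehicle 19.79 M to 20.88 M. Levels are given as CPM, the usual depth-scaled count, with TMM factors applied. Only the marker levels in this paragraph were scaled by library totals alone. The epithelial markers EPCAM (486 to 637 CPM), KRT8 and VIL1 were high in all 60 libraries, while CDX1 reached at most 1.44 CPM. Among markers of leukocytes, fibroblasts, endothelium and hepatocytes, PTPRC, CD3E, COL1A2, DCN, VWF, ALB and APOA1 reached at most 0.175 CPM. CD68 had 4.03 to 10.1 CPM, PECAM1 0.946 to 2.41 CPM and COL1A1 0.722 to 1.92 CPM, and none of these 3 was at 0 in any library. Mitochondrially encoded genes took 5.59% to 7.4% of counts in the means of the 18 treated groups and 8.71% ± 1.19 (SD, n = 3) in vehicle.

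All 10 genes rose with Glycyrrhiza at 350 µg/mL, while no other group had more than 5 of them higher than vehicle. Between its high and low dose the log2 fold changes ran from 0.69 to 2.79 with a median of 1.55, beside a median of -0.01 over all tested genes. A gene was called at an adjusted p below 0.05 by edgeR's quasi-likelihood test with Benjamini-Hochberg adjustment over all tested genes, and 24.9% of these were called in the same comparison, with 14.0% of the tested genes called as higher. The members with the largest fold changes were the peptide hormone gene ADM2 and the glutathione-degrading enzyme gene CHAC1. The smallest were those of CEBPB, ATF4 and PPP1R15A. In none of the 57 libraries outside the Glycyrrhiza high dose did any of the 10 genes reach the lowest value of its 3 high dose libraries. How many of all tested genes lay apart in this way was not counted, so whether this is particular to the 10 genes is not known.

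**Figure D1:**
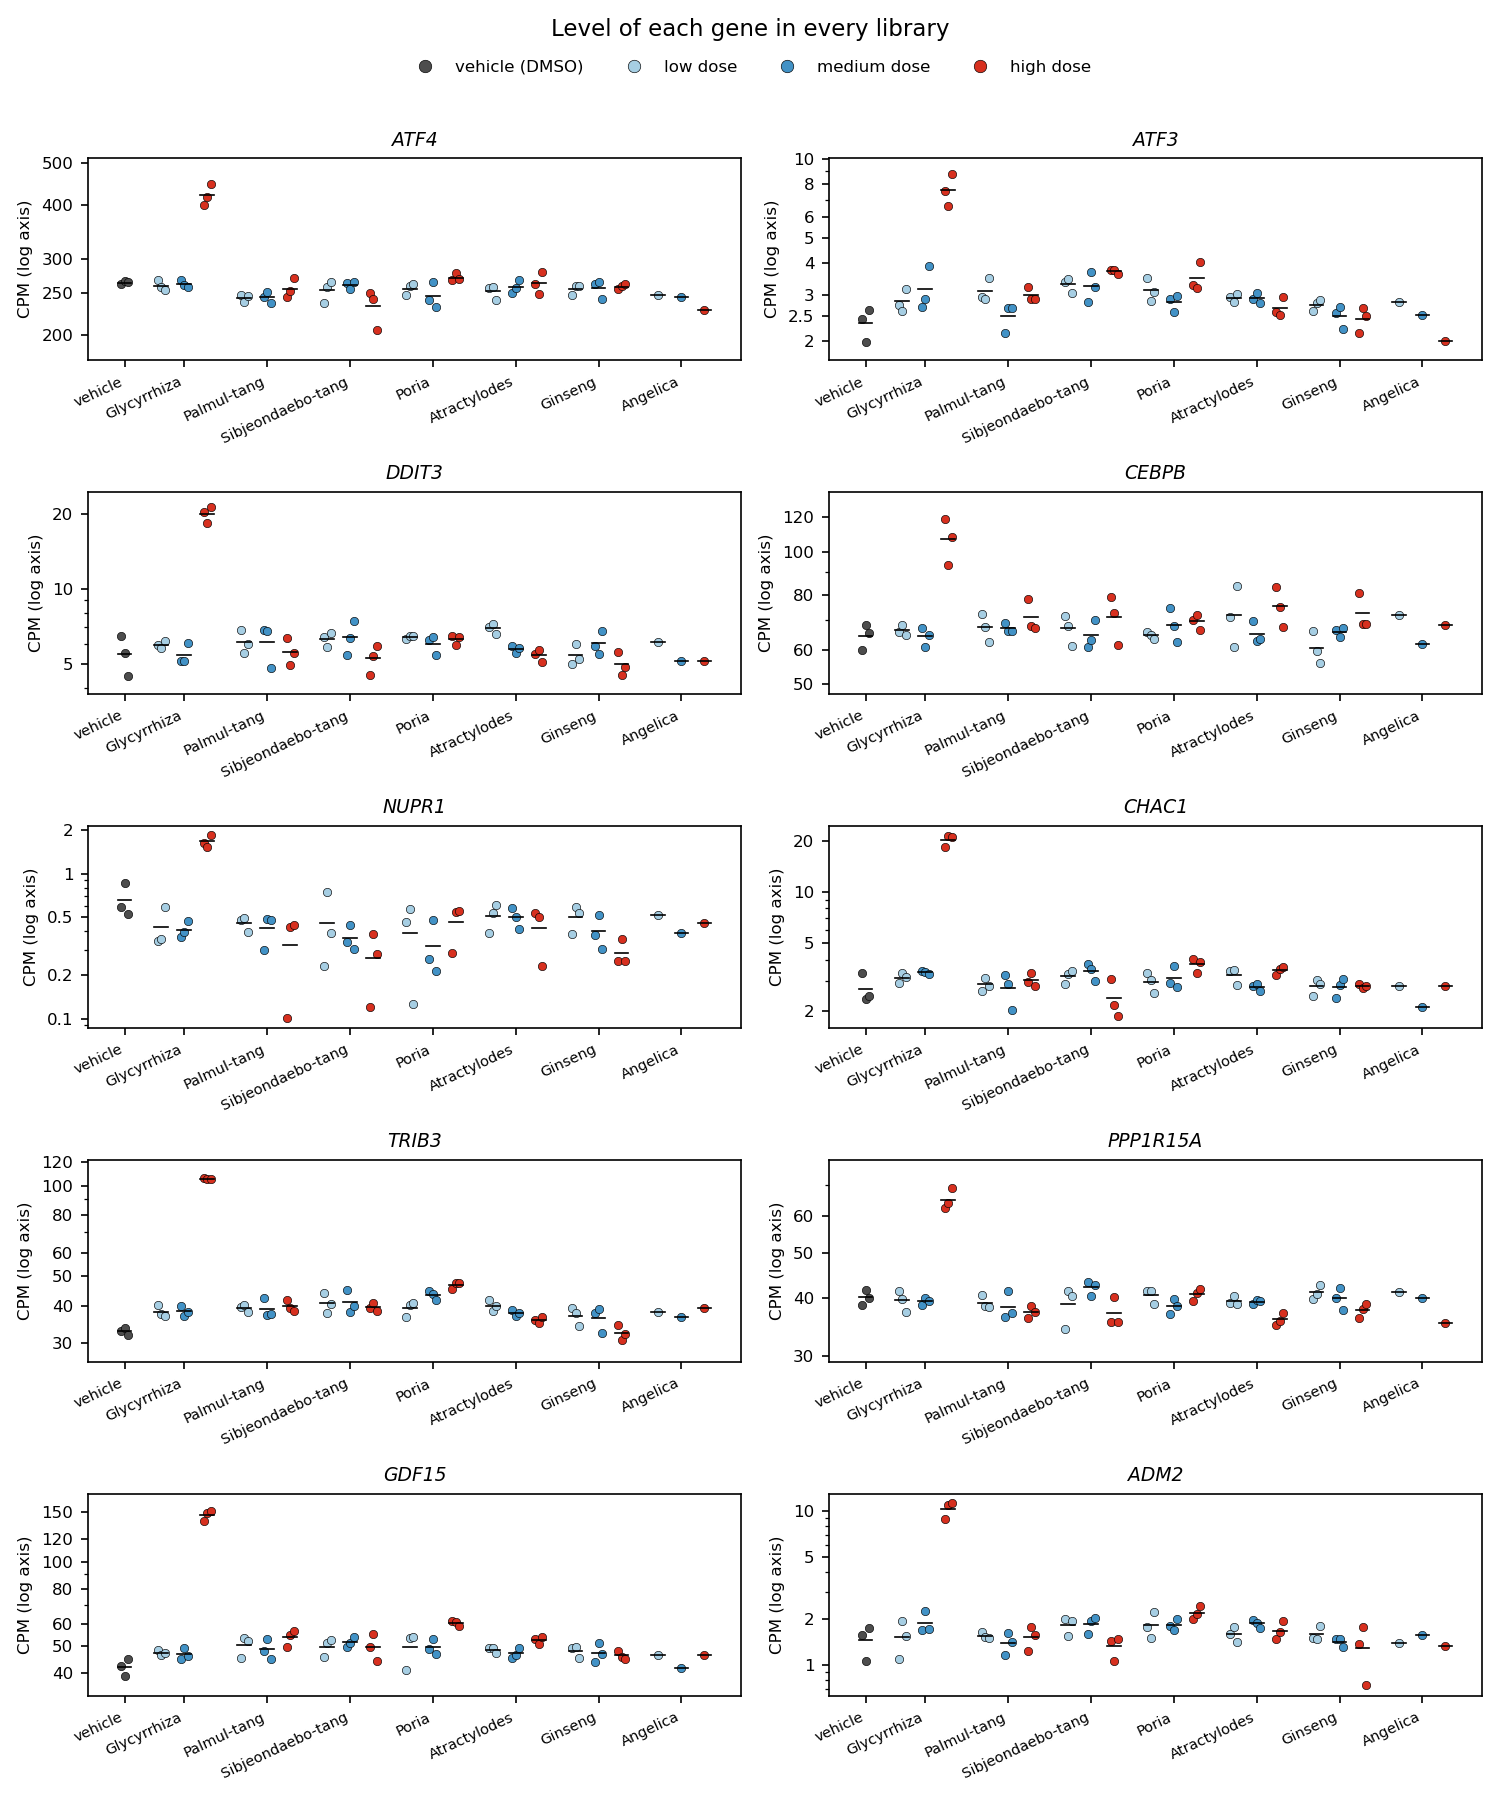
Level of each of the 10 genes in all 60 libraries, in CPM on a log axis, by extract and dose; points are libraries and bars group means, with 1 library per Angelica dose. The 3 libraries of the Glycyrrhiza high dose lie above all others for each gene, for example at 18.5 to 21.3 CPM for CHAC1 against at most 4.04 CPM elsewhere. How many of all tested genes lie apart in this way was not counted.

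The transcription factors came to different heights. ATF4 (ENSG00000128272, chr22:39519695-39522685), which drives the response, had 400, 418 and 447 CPM in the 3 libraries at the Glycyrrhiza high dose, against 268, 258 and 254 CPM at the low dose. The groups were far apart, with a fold change of 1.62 (95% confidence interval 1.51 to 1.74, adjusted p = 1.63e-15). ATF3 (ENSG00000162772, chr1:212565334-212620777), a stress-induced bZIP factor, had 7.52, 6.61 and 8.79 CPM at the high dose, against 2.76, 2.62 and 3.16 CPM at the low dose. Its fold change was 2.68 (2.27 to 3.16, adjusted p = 1.00e-13). DDIT3 (ENSG00000175197, chr12:57516588-57521737), which encodes CHOP, a factor linked to cell death under lasting ER stress, had 20.4, 18.4 and 21.3 CPM at the high dose, against 5.94, 5.75 and 6.13 CPM at the low dose. This was a 3.37-fold difference (2.9 to 3.91, adjusted p = 3.20e-18). CEBPB (ENSG00000172216, chr20:50190734-50192689), a C/EBP factor that can pair with ATF4, had 119, 93.5 and 108 CPM at the high dose, against 65.9, 68.3 and 64.8 CPM at the low dose. Its high dose libraries spread widely but did not overlap the low dose ones, and it rose 1.61-fold (1.42 to 1.83, adjusted p = 2.44e-08). NUPR1 (ENSG00000176046, chr16:28532708-28539174), a small stress-induced nuclear protein, had 1.64, 1.54 and 1.86 CPM at the high dose, against 0.341, 0.353 and 0.593 CPM at the low dose. Its median count over 60 libraries was 11, and the fold change of 3.86 accordingly has a wide interval (2.4 to 6.22, adjusted p = 1.27e-05). DDIT3 overlaps MARS1 and MBD6, and CEBPB overlaps CEBPB-AS1, each on the opposite strand. No source used here gives the strand setting of the counting, so these values are uncertain to that extent. DDIT3 also overlaps ENSG00000285133 on the same strand, which a strand setting would not separate, and no count of that gene is given.

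Feedback and effector genes rose too. TRIB3 (ENSG00000101255, chr20:362835-397559), a pseudokinase that binds AKT and restrains ATF4, had 106, 105 and 105 CPM at the Glycyrrhiza high dose, against 40.2, 37.5 and 37 CPM at the low dose. The high dose libraries were almost equal, and the fold change was 2.75 (2.54 to 2.98, adjusted p = 1.14e-25). PPP1R15A (ENSG00000087074, chr19:48872392-48876057), whose product GADD34 brings a phosphatase to eIF2 and so ends the response, had 62.4, 63.8 and 68.8 CPM at the high dose, against 41.4, 39.8 and 37.4 CPM at the low dose. This was a 1.65-fold rise (1.53 to 1.77, adjusted p = 1.24e-15). CHAC1 (ENSG00000128965, chr15:40952962-40956519), a cyclotransferase that breaks down glutathione, had 18.5, 21.3 and 21 CPM at the high dose, against 2.91, 3.33 and 3.16 CPM at the low dose. It rose 6.47-fold (5.45 to 7.69, adjusted p = 6.42e-23).

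Both genes of secreted proteins rose. GDF15 (ENSG00000130513, chr19:18374731-18389176), a stress hormone of the TGF-beta superfamily, had 140, 149 and 152 CPM at the high dose, against 48.3, 46.5 and 47.2 CPM at the low dose. The fold change was 3.11 (2.8 to 3.44, adjusted p = 3.50e-23). ADM2 (ENSG00000128165, chr22:50481556-50486440), a peptide of the calcitonin family, had 8.88, 10.9 and 11.3 CPM at the high dose, against 1.1, 1.92 and 1.54 CPM at the low dose. Its low dose libraries spread more than those of CHAC1, and its fold change was 6.92 (5.45 to 8.78, adjusted p = 2.52e-18).

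The rise lay between 70 and 350 µg/mL. In vehicle and at 14, 70 and 350 µg/mL the mean level of CHAC1 was 2.7 ± 0.539, 3.14 ± 0.209, 3.38 ± 0.0734 and 20.3 ± 1.54 CPM (SD, n = 3 each). In the same order DDIT3 had 5.46 ± 1, 5.94 ± 0.187, 5.41 ± 0.534 and 20 ± 1.47 CPM. GDF15 had 42.3 ± 2.91, 47.4 ± 0.913, 46.7 ± 2.16 and 147 ± 6.17 CPM. In these genes the level at the medium dose was close to that at the low dose. Both comparisons with the medium dose were added after the data had been seen. High against medium dose gave 10 of 10 members as higher, with log2 fold changes of 0.69 to 2.58, where 23.7% of all tested genes were called. Medium against low dose gave 0 of 10 by edgeR, 0 at an unadjusted p below 0.05 and 0 by DESeq2, and 0 of the 16445 tested genes were called by edgeR. The log2 differences there ran from -0.14 to 0.33. The intervals were narrow for TRIB3 (-0.12 to 0.12) and ATF4 (-0.09 to 0.12) and wide for NUPR1 (-0.91 to 0.76).

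Against vehicle the Glycyrrhiza high dose gave the same 10 rises, with log2 fold changes of 0.67 (ATF4) to 2.90 (CHAC1) and a median of 1.69, beside 0.00 over all tested genes, 34.3% of which were called and 18.8% called as higher. NUPR1 had the highest adjusted p of the 10, rising 2.54-fold (1.6 to 4.02, adjusted p = 0.00112). Its 3 vehicle libraries, at 0.586, 0.866 and 0.529 CPM, were the group with the highest mean outside the Glycyrrhiza high dose. Both comparisons share the 3 high dose libraries. With the mitochondrial share as a covariate all 10 remained called, at log2 fold changes of 0.63 to 3.03.

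Per kb of transcript, the only scale on which levels of different genes are compared here, ATF4 was the most abundant member. It stood at 209 to 297 CPM per kb with the Glycyrrhiza high dose and 131 to 187 CPM per kb in vehicle, depending on whether the longest or the shortest annotated coding transcript is used. GDF15 followed at 123 and 35.2 CPM per kb. NUPR1 was the lowest member with Glycyrrhiza by the longest transcripts, at 0.306 to 3.06 CPM per kb, and at 0.12 to 1.2 CPM per kb in vehicle. For ADM2 the choice of transcript decides its place, since it moves the high dose value from 2.43 to 19.4 CPM per kb.

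In the other 5 extracts the 10 genes hardly depended on dose. Poria raised 2 between high and low dose, where 1.86% of all tested genes were called. TRIB3 had 45.4, 47.7 and 47.4 CPM at the Poria high dose, against 36.6, 40.3 and 40.8 CPM at the low dose, which is 0.25 ± 0.06 on the log2 scale (SE, adjusted p = 0.00977). GDF15 had 61.4, 60.8 and 59.1 CPM at the high dose, against 41, 53.3 and 54.1 CPM at the low dose, which is 0.28 ± 0.07 on the log2 scale (SE, adjusted p = 0.0314). Groups did not overlap for either gene, but both calls are near their limit. TRIB3 was no longer called without replicate 2 of the high dose (adjusted p = 0.0574) or replicate 1 of the low dose (adjusted p = 0.11), and GDF15 without replicate 1, 2 or 3 of the high dose or replicate 1 of the low dose (adjusted p = 0.0582 to 0.329). CHAC1 had a larger log2 value of 0.34 ± 0.14 (SE) but did not pass the test (adjusted p = 0.281 by edgeR).

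With Palmul-tang, Sibjeondaebo-tang, Atractylodes and Ginseng, 0 of 10 members passed the test between high and low dose in edgeR and 0 in DESeq2, where edgeR called 0.152%, 0.371%, 3.95% and 2.52% of all tested genes. At an unadjusted p below 0.05 the numbers were 0, 4, 3 and 3. All 4 with Sibjeondaebo-tang had lower values at the high dose, namely CHAC1 (log2 -0.43 ± 0.15), ADM2 (-0.45 ± 0.20), DDIT3 (-0.26 ± 0.12) and ATF4 (-0.12 ± 0.05). The 3 with Atractylodes were lower as well, with DDIT3 at -0.36 ± 0.12, TRIB3 at -0.16 ± 0.06 and PPP1R15A at -0.14 ± 0.05. Those with Ginseng were TRIB3 at -0.19 ± 0.06, PPP1R15A at -0.13 ± 0.06 and CEBPB at 0.26 ± 0.09. For none of these 10 values can a change be stated after adjustment. The interval for ATF4 with Sibjeondaebo-tang, -0.23 to -0.02, lies wholly under the 0.70 seen with Glycyrrhiza.

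**Figure D2:**
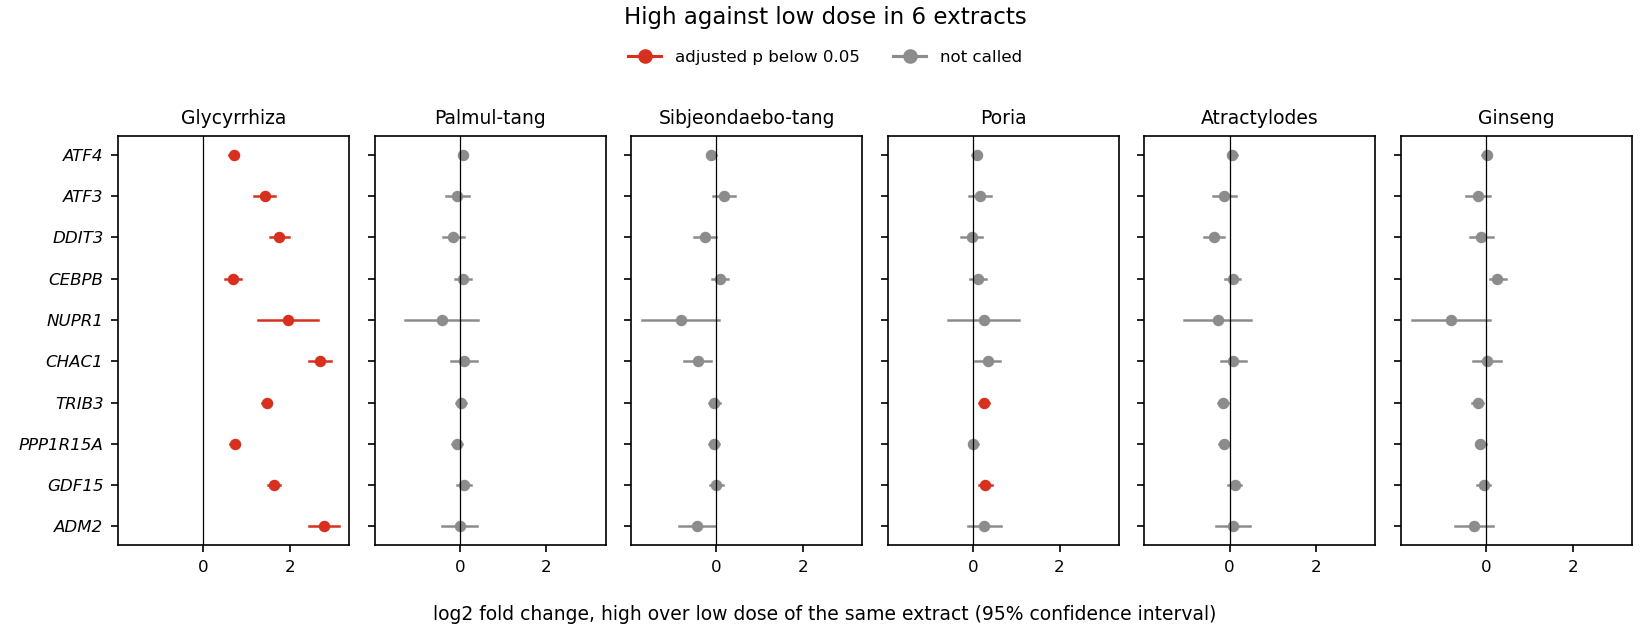
Log2 fold change of each gene between the high and the low dose of the same extract, with 95% confidence intervals; red marks an adjusted p below 0.05. All 10 genes are red with Glycyrrhiza (0.69 to 2.79), TRIB3 and GDF15 with Poria (0.25 and 0.28), and none with the other 4 extracts.

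Whether the dose difference itself differed between extracts was tested in the same fit, as the high against low difference of 1 extract minus the mean of the other 5. For Glycyrrhiza all 10 members were higher, by log2 0.57 (CEBPB) to 2.87 (ADM2), and 21.5% of all tested genes were called. For Sibjeondaebo-tang 5 members were lower (ATF4, CHAC1, TRIB3, GDF15 and ADM2) at a background of 1.21%, for Atractylodes 2 (DDIT3 and TRIB3) at 0.268% and for Ginseng 2 (TRIB3 and GDF15) at 0.109%. Palmul-tang and Poria had 0 by edgeR (0.669% and 0.140% of all tested genes), with 7 and 0 at an unadjusted p below 0.05 and 2 and 0 by DESeq2. The other 5 extracts include Glycyrrhiza for each of these, so its rise enters the difference. In a comparison added after the data had been seen, with Glycyrrhiza left out of the other extracts, the 9 lower members were no longer called, and TRIB3 with Poria was called as higher than in the other 4 (log2 0.35, adjusted p = 0.0101).

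Extracts whose sample codes share their first number, called a set here, were also compared directly at their high doses. The labels do not say what that number stands for. Glycyrrhiza at 350 µg/mL had all 10 members higher than Ginseng at 500 µg/mL, by log2 0.55 (CEBPB) to 2.99 (ADM2), where 23.3% of all tested genes were called. For CHAC1 this was 18.5, 21.3 and 21 CPM with Glycyrrhiza, against 2.89, 2.72 and 2.79 CPM with Ginseng. The doses of these extracts differ. By the series text 350 µg/mL would be the IC20 of Glycyrrhiza, while 500 µg/mL would lie at or under that of Ginseng. In the test of Glycyrrhiza against the other extracts above, their high dose was 500 µg/mL as well. Poria had more TRIB3 than Atractylodes at 500 µg/mL, at 45.4, 47.7 and 47.4 CPM against 36, 35.1 and 36.7 CPM (log2 0.38 ± 0.06, adjusted p = 3.33e-05), 1 of 10 members at a background of 0.979%. It stayed called without any 1 of the 6 libraries. Palmul-tang against Sibjeondaebo-tang gave 0 of 10 by edgeR, 3 at an unadjusted p below 0.05 and 0 by DESeq2, and 0 of all 16445 tested genes. Their largest such difference was in CHAC1, at log2 0.36 with an interval of 0.05 to 0.67.

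TRIB3, GDF15 and ATF3 were the members most often higher than in vehicle, by small amounts and at low doses as well as high ones. Over the 17 comparisons with vehicle other than the Glycyrrhiza high dose, TRIB3 was higher in 13, GDF15 in 9 and ATF3 in 7, and none of the 3 was lower in any. In these comparisons 5.99% to 14.2% of all tested genes were called as higher, and 4.12% to 13.1% as lower. TRIB3 had 33, 33.8 and 32 CPM in vehicle, and the log2 fold changes of the 13 groups were 0.20 to 0.51. The gene was called at all 3 doses of Palmul-tang, Sibjeondaebo-tang and Poria, at the low and medium doses of Atractylodes and Glycyrrhiza, and at no dose of Ginseng. These comparisons share the 3 vehicle libraries. The sample codes of vehicle share no first number with those of any extract, so set and treatment cannot be told apart here. It also had the highest mitochondrial share of all groups, as given above. With that share as a covariate TRIB3 was called in 2 of the 17 (the Poria medium and high doses), GDF15 in 4 and ATF3 in 7, and PPP1R15A was higher in 1 (Sibjeondaebo-tang medium dose, log2 0.20, adjusted p = 0.0345). Of the 36 calls of members in these 17 comparisons, 15 held when any 1 library was left out, and 17 were lost without vehicle replicate 2, 9 without replicate 3 and 6 without replicate 1.

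**Figure D3:**
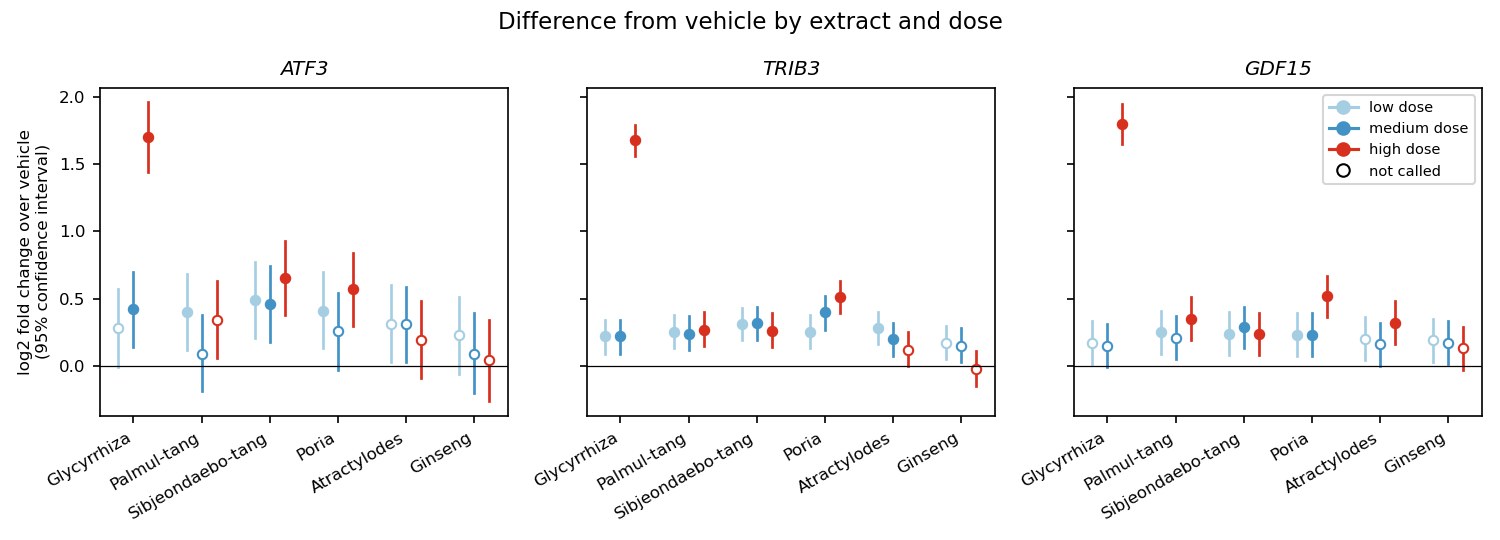
Log2 fold change over vehicle of ATF3, TRIB3 and GDF15 at 3 doses of each extract, low to high from left to right, with 95% confidence intervals; open circles are not called. The Glycyrrhiza high dose stands at 1.70, 1.68 and 1.80, and TRIB3 lies at 0.20 to 0.51 in the other 13 groups where it was called.

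At the lower doses, few members were called in any 1 group. At the low and medium dose the counts were 3 and 1 with Palmul-tang (20.4% and 21.1% of all tested genes called), 3 and 3 with Sibjeondaebo-tang (20.0% and 20.1%), and 3 and 2 with Poria (18.5% and 20.6%). They were 2 and 1 with Atractylodes (22.4% and 20.7%) and 1 and 2 with Glycyrrhiza (17.6% and 13.1%). With Ginseng they were 0 and 0 by edgeR (13.0% and 10.1%), with 2 and 2 at an unadjusted p below 0.05 and 1 and 0 by DESeq2. All these calls were higher values of TRIB3, GDF15 or ATF3, except that of DDIT3 at the Atractylodes low dose (log2 0.34 ± 0.12, adjusted p = 0.0393). That call was lost without any 1 of the 3 Atractylodes low libraries (adjusted p = 0.0515 to 0.0967), without vehicle replicate 2 or 3 (0.0818 and 0.308), with both groups fitted alone (0.0982) and with the mitochondrial covariate (0.336).

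By extract, the Poria high dose had 5 members higher than vehicle, where 25.0% of all tested genes were called. These were ADM2 (log2 0.59 ± 0.20), ATF3 (0.57 ± 0.14), GDF15 (0.52 ± 0.08), TRIB3 (0.51 ± 0.06) and CHAC1 (0.47 ± 0.15). TRIB3, GDF15 and ATF3 held under every alternative. CHAC1 was lost without high dose replicate 1 or 3 or vehicle replicate 2 or 3 (adjusted p = 0.0518 to 0.108), and ADM2 without high dose replicate 3 or vehicle replicate 2 (adjusted p = 0.102 and 0.189). The Sibjeondaebo-tang high dose had 3 members higher (ATF3, TRIB3 and GDF15) and 2 lower, where 27.4% of genes were called. GDF15 (log2 0.24) was lost without Sibjeondaebo-tang high replicate 2 (log2 0.16, adjusted p = 0.195), without vehicle replicate 2 (0.129), with both groups fitted alone (0.0642) and with the mitochondrial covariate (0.105). TRIB3 was lost with that covariate (log2 0.14, adjusted p = 0.222). ATF3 had 3.75, 3.76 and 3.62 CPM there, against 2.44, 1.99 and 2.64 CPM in vehicle (log2 0.65 ± 0.14, adjusted p = 2.79e-04). Its ATF4, at 250, 243 and 206 CPM, lay under the 262, 267 and 265 CPM of vehicle (log2 -0.19 ± 0.05, adjusted p = 0.00574), a call that was lost without replicate 3, the lowest of these libraries (log2 -0.10, adjusted p = 0.152) and once the mitochondrial share entered the fit (log2 -0.11, adjusted p = 0.318). ATF3 held under all 12 alternatives.

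NUPR1 fell to 0.12, 0.385 and 0.279 CPM with Sibjeondaebo-tang at the high dose (log2 -1.35 ± 0.44, adjusted p = 0.0159) and to 0.252, 0.353 and 0.249 CPM with Ginseng at the high dose (log2 -1.21 ± 0.44, adjusted p = 0.0445), against 0.586, 0.866 and 0.529 CPM in vehicle. Its value was below that of vehicle in all 17 groups. These calls rest on very few counts. The first was lost without Sibjeondaebo-tang high replicate 1 (adjusted p = 0.112) or vehicle replicate 2 (adjusted p = 0.103) and the second without any 1 of its 6 libraries (adjusted p = 0.0541 to 0.203), and neither held with the mitochondrial share as a covariate (adjusted p = 0.241 and 0.217). NUPR1 was the single member called at the Ginseng high dose, where 18.9% of all tested genes were called. Palmul-tang at the high dose had 2 members higher (GDF15 and TRIB3, log2 0.35 and 0.27, background 21.7%). GDF15 held under all 12 alternatives, and TRIB3 was lost with the mitochondrial covariate (adjusted p = 0.259). Atractylodes at the high dose had GDF15 higher (log2 0.32 ± 0.08, adjusted p = 0.00212) and PPP1R15A lower (-0.16 ± 0.06, adjusted p = 0.0344) at a background of 22.5%. PPP1R15A had 35.1, 35.8 and 37.1 CPM there, against 38.7, 41.7 and 40.1 CPM in vehicle, and was lost without Atractylodes high replicate 1 or 2 or vehicle replicate 2 or 3 (adjusted p = 0.0849 to 0.16). CEBPB was called in 0 of the 17 groups by edgeR and 0 by DESeq2, with 1 at an unadjusted p below 0.05 (Atractylodes high), and its log2 values there ran from -0.09 to 0.22. Some edgeR alternatives did call it as higher. At the Atractylodes high dose these were both groups fitted alone (adjusted p = 0.0349), the replicate block (0.0424), no low-count filter (0.000259) and high dose replicate 3 left out (0.029). At the Atractylodes low dose they were no filter (0.0192) and low dose replicate 2 left out (0.038), and at the Ginseng high dose no filter (0.0188).

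Outside the Glycyrrhiza high dose, the 18 group means of a gene spanned at most 2.53-fold (NUPR1) and as little as 1.17-fold (ATF4 and PPP1R15A). Poria at the high dose was next after Glycyrrhiza for ATF4, CHAC1, TRIB3, GDF15 and ADM2, and the gap between them was 1.55-fold for ATF4 and 5.41-fold for CHAC1. Of these 5, its libraries lay wholly above the next group for ATF4, TRIB3 and GDF15. For ATF4 that next group was vehicle. Replicate 3 of Atractylodes at the high dose, with 280 CPM of ATF4, was above all Poria high dose libraries (268, 278 and 269 CPM). For all other genes the groups below Glycyrrhiza formed a sequence in which neighbours overlapped, except that the 3 TRIB3 values of Atractylodes at the high dose lay above those of vehicle, the next group down. Vehicle was the lowest group for ATF3 and GDF15 and the second highest for NUPR1.

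The wider pathway was described with lists of other genes, also chosen with earlier results of these data known. Of 41 other ATF4 targets 37 were tested, and between the Glycyrrhiza high and low dose 34 rose and 1 fell, with a median log2 fold change of 0.75. In that comparison 24.9% of all tested genes were called, and 14.0% were called as higher. The glycine transporter gene SLC6A9 had 8.94 ± 0.418 CPM at the high dose and 0.791 ± 0.143 CPM at the low dose (log2 3.50 ± 0.22). NIBAN1, a stress-induced gene, had 14.4 ± 0.573 CPM at the high dose and 3.49 ± 0.33 CPM at the low dose (log2 2.04 ± 0.12). ASNS, which makes asparagine, had 207 ± 6.94 CPM at the high dose and 53.1 ± 1.59 CPM at the low dose (log2 1.97 ± 0.05), and DDIT4, an inhibitor of mTORC1 signalling, 60.6 ± 3.36 CPM and 16.4 ± 0.709 CPM (log2 1.89 ± 0.07). The gene that fell was ATF5, a bZIP relative of ATF4, with 51.9 ± 1.52 CPM at the high dose and 73.9 ± 4.42 CPM at the low dose (log2 -0.51 ± 0.09).

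Of 18 sensors and eIF2 factors upstream of ATF4, 3 rose and 4 fell, with a median of -0.02, where 24.9% of all tested genes were called. Without the filter on low counts 2 rose and 1 fell. The PERK gene EIF2AK3, an ER-resident eIF2 kinase, had 34.7 ± 1.93 CPM at the high dose and 21.4 ± 1.3 CPM at the low dose (log2 0.70 ± 0.05). PPP1R15B, the constitutive counterpart of PPP1R15A, followed at log2 0.30 ± 0.05. Among those that fell, OMA1 had 10.2 ± 0.736 CPM at the high dose and 11.9 ± 0.982 CPM at the low dose. EIF2AK4, the GCN2 kinase of amino acid shortage, fell slightly (log2 -0.16 ± 0.04). Of 15 bZIP and Tribbles relatives, 3 of which are also on the list of targets, 10 rose and 1 fell, with a median of 0.26. JDP2, a bZIP repressor, rose by log2 0.95 ± 0.13 and TRIB2, a Tribbles pseudokinase like TRIB3, by 0.74 ± 0.12. Of 18 genes of the IRE1 and ATF6 arms of the unfolded protein response, which run beside the PERK arm that feeds ATF4, 17 rose and none fell, with a median of 0.58. The ER chaperone gene HSPA5 had 835 ± 43.1 CPM at the high dose and 436 ± 10.1 CPM at the low dose (log2 0.94 ± 0.04), while HERPUD1, of ER-associated degradation, rose by log2 1.26 ± 0.05 and the co-chaperone gene DNAJB9 by 1.33 ± 0.07.

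Of 16 NRF2 targets, the antioxidant genes, all rose with a median of 0.75. For this and the next 2 lists the background is the same, 24.9% of all tested genes called and 14.0% called as higher. SLC7A11, the cystine transporter gene that is on both this list and that of ATF4 targets, had 429 ± 13.9 CPM at the high dose and 126 ± 7.17 CPM at the low dose (log2 1.77 ± 0.07). Of 8 genes around glutathione, the substrate of CHAC1, 4 rose and 4 fell, with a median of 0.11. GCLC and GCLM, the subunits of the rate-limiting enzyme of its synthesis, rose by log2 0.97 ± 0.07 and 0.94 ± 0.06. Both are also on the list of NRF2 targets. Of 14 tested p53 targets 3 rose and 3 fell, with a median of -0.08, CDKN1A being higher (log2 0.91 ± 0.08) and BTG2 lower (-1.08 ± 0.07). Between the Glycyrrhiza medium and low dose no gene of any of these 7 lists was called.

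In the other extracts, between high and low dose, NRF2 targets rose in 5 of 16 with Palmul-tang, 9 with Sibjeondaebo-tang, 15 with Poria, 15 with Atractylodes and 13 with Ginseng, and none fell. Of all tested genes 0.152%, 0.371%, 1.86%, 3.95% and 2.52% were called in these comparisons, in the same order. Of the 10 members 0, 0, 2, 0 and 0 rose. Of the 37 other ATF4 targets 0, 1, 5, 7 and 2 rose and 0, 0, 1, 1 and 2 fell. SLC7A11 was among the ATF4 targets that rose in 4 of these extracts (Sibjeondaebo-tang, Poria, Atractylodes and Ginseng). Genes of the IRE1 and ATF6 arms rose in 1 of 18 with Atractylodes (HSPA5) and in 4 with Ginseng, and in 0 with the other 3 by edgeR. Whether these lists differ from one another was not tested.

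**Figure D4:**
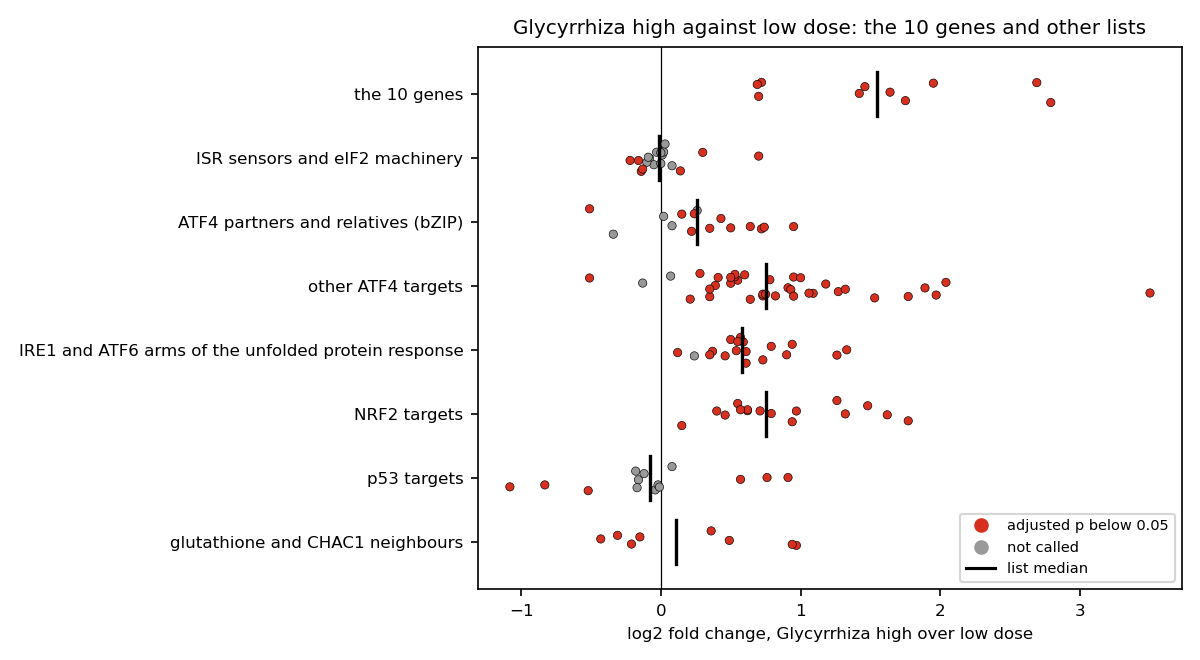
Log2 fold change between the Glycyrrhiza high and low dose for the 10 genes and the tested genes of 7 other lists; each point is a gene, red where the adjusted p was below 0.05, and bars are list medians. The medians are 1.55 for the 10 genes, 0.75 for other ATF4 targets and for NRF2 targets, and near 0 for the sensors and p53 targets.

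The tested genes most like each member were found by the correlation of group mean log2 CPM over 19 groups. Nearest to ATF4 were SARS1 and GARS1, tRNA synthetase genes (r = 0.987 and 0.981), and nearest to CHAC1 were ASNS and PCK2 (0.985 and 0.982). Nearest to GDF15 was PSAT1, of serine synthesis (0.980), to DDIT3 SESN2 (0.975), to ADM2 the member CHAC1 (0.976), to TRIB3 the member GDF15 (0.974) and to PPP1R15A VEGFA (0.967). ATF3 was nearest to TRIB3 (0.941), CEBPB to DNAJC10 (0.961) and NUPR1 to GOLGA5 (0.914). The high values rest on 1 group: over the 18 groups without the Glycyrrhiza high dose, r was 0.85 for ATF4 with SARS1, 0.71 for CHAC1 with ASNS and 0.64 for DDIT3 with SESN2. Among the 10 genes themselves the median r of the 45 pairs was 0.25 over those 18 groups, with 3 pairs above 0.7 and 11 below 0, and -0.02 over the 57 libraries within groups. All these values come from the same libraries and are descriptions.

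Angelica had 1 library per dose and no test. At 12.8, 64 and 320 µg/mL TRIB3 had 38, 36.6 and 39.3 CPM, all above the vehicle range of 32 to 33.8 CPM, and CHAC1 had 2.78, 2.12 and 2.81 CPM beside a vehicle range of 2.34 to 3.32 CPM. ATF4 had 247, 245 and 229 CPM, all below the vehicle range of 262 to 267 CPM. At 320 µg/mL, 2 members lay above the vehicle range (TRIB3 and GDF15) and 3 below it (ATF4, NUPR1 and PPP1R15A), with log2 ratios to the vehicle mean of -0.52 to 0.25. Without replicates no difference between Angelica and Glycyrrhiza was tested.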

How the data were processed

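Total RNA of HT29 cells was sequenced in 60 libraries as 100 bp pairs with a directional MGI kit (per the labels' protocols). Values in the deposited table are RSEM expected counts for each gene. The submitters' processing notes name FastQC 0.11.9, Trim Galore 0.6.5, STAR 2.7.3a, RSEM 1.3.3 and hg38. No source used here names the annotation release. Expected counts split reads of shared sequence by estimated probability. In each library 7.7% to 9.78% of values had a fractional part, and all were rounded. For DDIT3 and CEBPB they were not whole in 59 of 60 libraries, and for ATF4 in 33. The table has 213 further columns of samples, not used here. Gene coordinates are from GENCODE 29 (GRCh38), which holds 57055 of the identifiers, and symbols were matched for 56558.

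The 57 libraries in groups of 3 entered 1 fit in edgeR 4.0.16 under R 4.3.3 (filterByExpr, TMM factors of 0.956 to 1.031, quasi-likelihood F test, 38 residual degrees of freedom). Standard errors and intervals come from that fit, and adjusted p-values were taken over all 16445 tested genes of a comparison. CPM of libraries were computed with the TMM factors, except for the cell type markers, where library totals alone were used. Scripts were tested on simulated data. No replicates were merged, since each pair differed by more than counting noise (chi-square over its degrees of freedom 2.37 to 23.9).

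The 10 genes and all lists were chosen with earlier results of these data known. All 10 are named throughout. From each other list up to 4 called genes with the largest change per high dose comparison are named, and per member the 3 most alike genes were found. Which extracts, genes and libraries are set out in full beyond this, such as ATF5, followed from the values. Alternatives were DESeq2 1.42.0, a replicate block, RLE factors, 2 groups fitted alone, all genes without the low-count filter, the share of mitochondrial counts as a covariate, and each library left out in turn. A count near 0 is limited by depth, and intervals cover the spread of the fit only.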

Additional observations from a re-analysis of the deposited data

Results flagged for a closer look

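The following 19 values were flagged because the high against low dose difference of 1 extract differed from the mean of the other 5 in a test of that difference (edgeR's quasi-likelihood test, Benjamini-Hochberg adjustment over all tested genes). Groups of 3 libraries are too small for the search for outlying samples.

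With Glycyrrhiza all 10 genes had a higher difference than the other 5 extracts, with adjusted p-values of 1.21e-05 or less. The log2 values were 2.87 for ADM2, 2.67 for CHAC1, 2.37 for NUPR1, 1.93 for DDIT3, 1.55 for GDF15, 1.49 for TRIB3, 1.43 for ATF3, 0.79 for PPP1R15A, 0.68 for ATF4 and 0.57 for CEBPB. With Sibjeondaebo-tang 5 were lower than in the other 5, by log2 -1.08 for CHAC1, -1.02 for ADM2, -0.42 for GDF15, -0.32 for TRIB3 and -0.31 for ATF4. With Atractylodes DDIT3 was lower by log2 -0.60 and TRIB3 by -0.45, and with Ginseng TRIB3 was lower by -0.50 and GDF15 by -0.48. The other 5 extracts of these 9 lower values include Glycyrrhiza. Without it, the same values with Sibjeondaebo-tang were -0.57, -0.46, -0.11, -0.03 and -0.18, with Atractylodes -0.23 and -0.16, and with Ginseng -0.21 and -0.18, and none was called (adjusted p = 0.317 to 1). Without replicate 3 of the Sibjeondaebo-tang high dose GDF15 had log2 -0.34 (adjusted p = 0.0516). DDIT3 with Atractylodes was lost without high dose replicate 1 or 3 or low dose replicate 1 or 2 (adjusted p = 0.0563 to 0.116).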

How the results depend on the processing

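With Glycyrrhiza at the high dose, 10 of 10 genes were called against low dose, medium dose, vehicle, Ginseng and in the test against the other 5 extracts under each alternative run, except that DESeq2 gave NUPR1 no adjusted p in 3 of them and so called 9. The count over all genes between its high and low dose was 4096, and 3274 to 4405 under the alternatives. Elsewhere counts of called members moved by over 1.5 times, and the cause was not tested. With the mitochondrial share as a covariate they were 1, 0 and 1 in place of 3, 1 and 2 for Palmul-tang low, medium and high against vehicle, 1 and 1 in place of 3 and 5 for Sibjeondaebo-tang low and high, 1 and 1 in place of 3 and 2 for Poria low and medium, 0, 0 and 1 in place of 2, 1 and 2 for Atractylodes low, medium and high, 0 and 1 in place of 1 and 2 for Glycyrrhiza low and medium, and 0 in place of 1 for Ginseng high. Without a filter on low counts they were 2 for Palmul-tang medium, 4 and 2 for Atractylodes low and medium, 2 and 1 for Glycyrrhiza low and medium, 1 and 1 in place of 0 for Ginseng low and medium, 1 in place of 0 between Ginseng high and low dose, 2 in place of 1 for Poria against Atractylodes, and 2 in place of 0 for Palmul-tang against the other 5. DESeq2 gave 2 for Palmul-tang medium, 1 for Glycyrrhiza medium, 1 for Ginseng low, 0 for Ginseng high and 2 for Palmul-tang against the other 5. With 2 groups fitted alone they were 3 for Sibjeondaebo-tang high, 1 and 3 for Poria low and high, 1 for Glycyrrhiza medium, 0 for Ginseng high, 0 between Poria high and low dose and 3 for Poria against Atractylodes. RLE factors gave 1 for Glycyrrhiza medium. Against the other extracts without Glycyrrhiza the counts were 0 in place of 5 for Sibjeondaebo-tang, 0 in place of 2 for Atractylodes and for Ginseng, and 1 in place of 0 for Poria. Of 18 sensors and eIF2 factors 3 in place of 7 were called without the filter.

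With a library left out, counts against vehicle ranged from 1 to 3 for Palmul-tang low, 1 to 2 for Palmul-tang medium, 1 to 3 and 1 to 4 and 3 to 5 for Sibjeondaebo-tang low, medium and high, 1 to 2 and 1 to 3 and 3 to 5 for Poria low, medium and high, 1 to 2 and 0 to 1 and 1 to 3 for Atractylodes low, medium and high, 0 to 1 and 0 to 2 for Glycyrrhiza low and medium, 0 to 1 for Ginseng low and medium, and 0 to 0 for Ginseng high. Between high and low dose they were 0 to 2 for Poria and 0 to 1 for Ginseng, and against the other 5 extracts 0 to 1 for Palmul-tang, 5 to 6 for Sibjeondaebo-tang and 1 to 2 for Atractylodes. No pairing by replicate number was seen in a check of deviations from group means. Same-numbered libraries correlated there at -0.11 to 0.19. In 0 of 29 comparisons were all correlations above 0.1, and in 5 of 29 all 3 matched best with their own number. With 3 libraries a group this check is weak and does not show that replicate number carries no structure. With the replicate block no call of a member was lost, and the counts were 2 in place of 1 for Palmul-tang medium, 1 in place of 0 for Ginseng low against vehicle, 1 in place of 0 between Ginseng high and low dose and 2 in place of 0 for Palmul-tang against the other 5. The counts of called genes over all genes moved by over 1.5 times in 13 of 29 comparisons with 2 groups fitted alone, 7 of 35 with DESeq2, 11 of 35 without the filter, 9 of 35 with the block, 13 of 26 with the mitochondrial share, 4 of 5 without Glycyrrhiza among the other extracts, 26 of 35 for at least 1 left-out library, and 0 of 35 with RLE factors. Depth limits NUPR1, with counts of 2 to 43 per library, most.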
